A study of Mus musculus with 10 samples.

Results

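The respiratory chain genes described here are the nuclear genes for the subunits of mitochondrial complexes I to V, with the complex I assembly factors whose symbols start with Ndufaf. They were taken by symbol: genes that start with Nduf, Uqcr, Cox4, Cox5, Cox6, Cox7, Cox8 or Atp5, and the 4 Sdh genes of complex II. The rule found 89 of the 19919 genes with a probe set of their own, and 81 of these passed the filter on dim genes that kept 14063 genes in all. By complex, 33 of 36 complex I subunits, 3 of 7 complex I assembly factors, all 4 of complex II, all 8 of complex III, 16 of 17 of complex IV and all 17 of complex V passed. Symbols that start with Nduf, apart from Ndufaf, were counted as complex I throughout. They include Ndufa4, now placed in cytochrome c oxidase, and its relative Ndufa4l2. The 8 that did not pass were Ndufa4l2, Ndufa5, Ndufb2, Ndufaf2, Ndufaf4, Ndufaf5, Ndufaf6 and Cox7b2. The 13 subunits encoded in mitochondrial DNA were not analysed here, and genes on probe sets shared with another symbol, such as Cox7c and Ndufb4, are not among the members.

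The study asked what lipocalin 2 (Lcn2), a granule protein that binds iron carriers, does in mouse bone marrow neutrophils at rest and after stimulation. All mice were labelled C57bl/6, female and 10 weeks old, and the cells were enriched on a Percoll gradient after lysis of red cells, so other marrow cells of like density can be present. Expression was measured on 10 microarrays: 3 of unstimulated wild type cells, 3 of unstimulated Lcn2 knockout cells, 2 of wild type and 2 of Lcn2 knockout cells after fMLP. fMLP, a formylated peptide of the bacterial type that attracts and activates neutrophils, was added to the stimulated cells for 20 minutes (10 micromolar, 37 degrees). The knockout allele, the number of animals behind an array and the handling of unstimulated cells are not described, so the p values cover only the spread between these arrays.

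Complex I (NADH dehydrogenase), complex II (succinate dehydrogenase, also an enzyme of the citric acid cycle), complex III (the cytochrome bc1 complex) and complex IV (cytochrome c oxidase) pass electrons from fuel to oxygen, and complexes I, III and IV pump protons across the inner mitochondrial membrane. Complex V, the ATP synthase, lets the protons flow back and makes ATP. Most subunits are encoded in the nucleus and must be matched by the few encoded in mitochondrial DNA. Neutrophils are known to hold few mitochondria and to draw much of their ATP from glycolysis.

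Textbook regulators of respiratory chain genes are NRF1, GABP and YY1, and promoter windows from RefSeq (GRCm38.p6, 250 bases before to 50 after a gene's start) were found for 73 of the 89 genes. The NRF1 motif GCGCANGCG, on either strand, was found in 21 of the 73 (28.8%) and in 7.03% of the 27025 genes with a window. It was present in 7 of 15 complex V genes (46.7%), 1 of 12 of complex IV (8.33%), 2 of 5 of complex III and 2 of 3 of complex II. In complex I it was present in 7 of 32 subunits (21.9%) and 2 of 6 assembly factors. The YY1 motif AAGATGGC was found in 10 genes (13.7%, against 3.19% of all genes) and the GABP motif CCGGAAGT in 5 (6.85%, against 4.31%). At least 1 of the 3 motifs was present in 33 genes (45.2%, against 13.2%). The stretches that follow run from 120 bases before to 30 bases after the start, 5′ to 3′ on the gene's strand, and capitals mark a motif match. Uqcrh (GABP) and Ndufa3 (YY1) are shown because they were called after fMLP and hold a match, and Ndufv1 and Ndufc2 because they were called and hold none. Sdha, with 3 NRF1 matches, and Ndufa8, with 2, are shown as NRF1 examples.
Uqcrh, chr4:116075041-116075190, minus strand: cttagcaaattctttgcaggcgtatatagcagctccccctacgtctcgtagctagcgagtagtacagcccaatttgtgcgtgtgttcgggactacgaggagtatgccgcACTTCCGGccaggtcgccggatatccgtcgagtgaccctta
Ndufa3, chr7:3617253-3617402, plus strand: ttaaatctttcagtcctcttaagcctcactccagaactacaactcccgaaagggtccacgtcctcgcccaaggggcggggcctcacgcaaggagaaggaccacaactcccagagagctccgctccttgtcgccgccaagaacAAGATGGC
Ndufv1, chr19:4012726-4012875, minus strand: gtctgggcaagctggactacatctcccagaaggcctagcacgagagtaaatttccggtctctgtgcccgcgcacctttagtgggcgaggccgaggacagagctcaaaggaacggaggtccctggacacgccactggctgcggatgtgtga
Ndufc2, chr7:97399883-97400032, plus strand: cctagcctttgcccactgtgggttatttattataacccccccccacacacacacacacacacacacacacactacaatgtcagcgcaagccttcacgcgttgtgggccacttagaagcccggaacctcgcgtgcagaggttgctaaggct
Sdha, chr13:74350211-74350360, minus strand: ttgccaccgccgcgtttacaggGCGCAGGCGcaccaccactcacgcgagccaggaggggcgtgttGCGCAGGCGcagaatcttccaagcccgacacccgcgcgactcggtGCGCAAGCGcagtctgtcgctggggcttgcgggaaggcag
Ndufa8, chr2:36049309-36049458, minus strand: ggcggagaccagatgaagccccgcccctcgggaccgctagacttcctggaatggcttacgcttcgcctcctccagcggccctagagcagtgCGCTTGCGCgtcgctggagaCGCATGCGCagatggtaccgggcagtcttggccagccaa
Of the 13 genes called after fMLP in the analysis without 1 array, 10 had a window. A motif was held by 3 of these 10: Uqcrh, Ndufa3 and Ndufs4 (YY1). Beside this stand 45.2% of the 73 members with a window and 13.2% of all genes. A match is a run of letters and was not tested for binding.

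Levels are RMA signals on a log2 scale, differences are log2 differences fitted with limma, and a gene was called at a Benjamini-Hochberg adjusted p below 0.05 over all genes tested. The arrays differed in ways that bear on every fMLP value. Unstimulated replicates 1 and 2 of both genotypes (array set 1) had interquartile ranges of 1.64 to 1.68, and array set 2, which holds the 4 fMLP arrays and the 2 unstimulated arrays numbered 3, had 2.47 to 2.59. The reported fits therefore held a term for the array set, and the fMLP difference averaged over genotype compares the fMLP arrays with unstimulated replicate 3. Lcn2 was 13.88 to 14.16 on the wild type and 8.09 to 9.60 on the knockout arrays, which matches the genotype labels. The neutrophil markers S100a8 (13.30 to 13.83) and Ly6g (11.89 to 13.89) were high on every array. fMLP Lcn2 knockout replicate 2 also carried neuron genes: the mean of the 10 neuron genes was 10.69 there and 7.56 to 8.40 elsewhere, so fMLP results are given with and without it. Against unstimulated replicate 3, the fMLP arrays had lower means of the 8 eosinophil and basophil genes (7.84 to 8.52 against 10.04 and 10.08), of the 6 measured monocyte genes (8.30 to 9.17 against 10.10 and 10.64) and of the 7 primary granule genes (9.69 to 10.92 against 11.32 and 11.33). The dividing precursor genes were 11.18 and 11.20 on unstimulated replicate 3 and 10.3 to 11.12 after fMLP. The T and NK cell genes were 8.21 and 8.39, then 9.18, 8.67, 8.97 and 8.21. Of the B cell genes, Cd79a, Cd79b, Ms4a1, Pax5, Ebf1 and Vpreb3 were higher on both wild type fMLP arrays and on fMLP Lcn2 knockout replicate 1. Each was compared with unstimulated replicate 3 of the same genotype. Cd79a was 11.14 and 11.67, then 12.21, 12.21 and 12.55, and 11.18 on fMLP Lcn2 knockout replicate 2. Jchain was lower, at 11.38 and 11.68, then 8.55 to 9.97. Xist was 6.88 and 6.94 on unstimulated replicate 3 and 9.83 to 11.12 after fMLP, while Eif2s3y, a gene of the Y chromosome, was 9.83 and 9.59 there and 5.36 to 6.48 after fMLP, although all mice were labelled female. What these differences contribute to the fMLP values was not tested. The Xist and Eif2s3y differences run along the same split as fMLP against unstimulated replicate 3. On these arrays what goes with them and what goes with fMLP cannot be told apart, which holds for every fMLP difference below. In RNA from a mixture, fewer cells of a type and less RNA per cell cannot be told apart either.

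Most respiratory chain genes were brighter in array set 2. Over the unstimulated arrays the set 2 minus set 1 difference of all 89 genes, with no filter, had a median of 0.93 and was above 0 for 74. For all 19919 genes the median was -0.34, and 7821 were above 0. The difference reached 3.18 for Atp5md, a small membrane subunit of ATP synthase. Among genes that passed the filter, the median was 1.04 for the 81 members, with 72 above 0. For all 14063 genes that passed it was 0.09, with 7337 above 0. The filter does not bear on the counts over 89 and 19919 genes, but it does on the others. Of the 81 genes that passed it, Ndufa2, Ndufa6, Ndufb5, Ndufs1 and Atp5o did so on set 2 arrays alone and Cox7a1, Cox8b and Cox8c on set 1 arrays alone. The 8 tissue-restricted isoforms had lower values in set 2, with a median of -0.52 and a range of -0.87 to -0.21: Cox4i2, Cox6a2, Cox6b2, Cox7a1, Cox7b2, Cox8b, Cox8c and Ndufa4l2. Most marker lists moved with the array set too. The T and NK cell genes moved little, from 8.21 to 8.31 on unstimulated set 1 to 8.21 and 8.39 on unstimulated replicate 3. The mean of the 5 measured erythroid genes was 9.58 to 10.81 on unstimulated set 1 and 11.33 and 11.37 on unstimulated replicate 3. After fMLP it was 10.57 to 11.72. The mean of the dividing precursor genes was 9.15 to 9.56 on unstimulated set 1 and 11.18 and 11.20 on unstimulated replicate 3, that of the primary granule genes 9.13 to 9.68 and 11.32 to 11.33, and that of the monocyte genes 8.28 to 8.67 and 10.10 to 10.64. The dim neuron genes (8.25 to 8.40, then 7.58 and 7.62) and muscle genes (8.61 to 8.77, then 8.24 and 8.28) were lower in set 2. In set 1 Eif2s3y was 6.77 to 7.22 and Xist 7.73 to 7.82. No unstimulated array of either set reached the Xist values of the fMLP arrays (9.83 to 11.12). The part of these in the difference between the sets was not tested, and array set and replicate number cannot be told apart in the unstimulated cells.

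**Figure D1:**
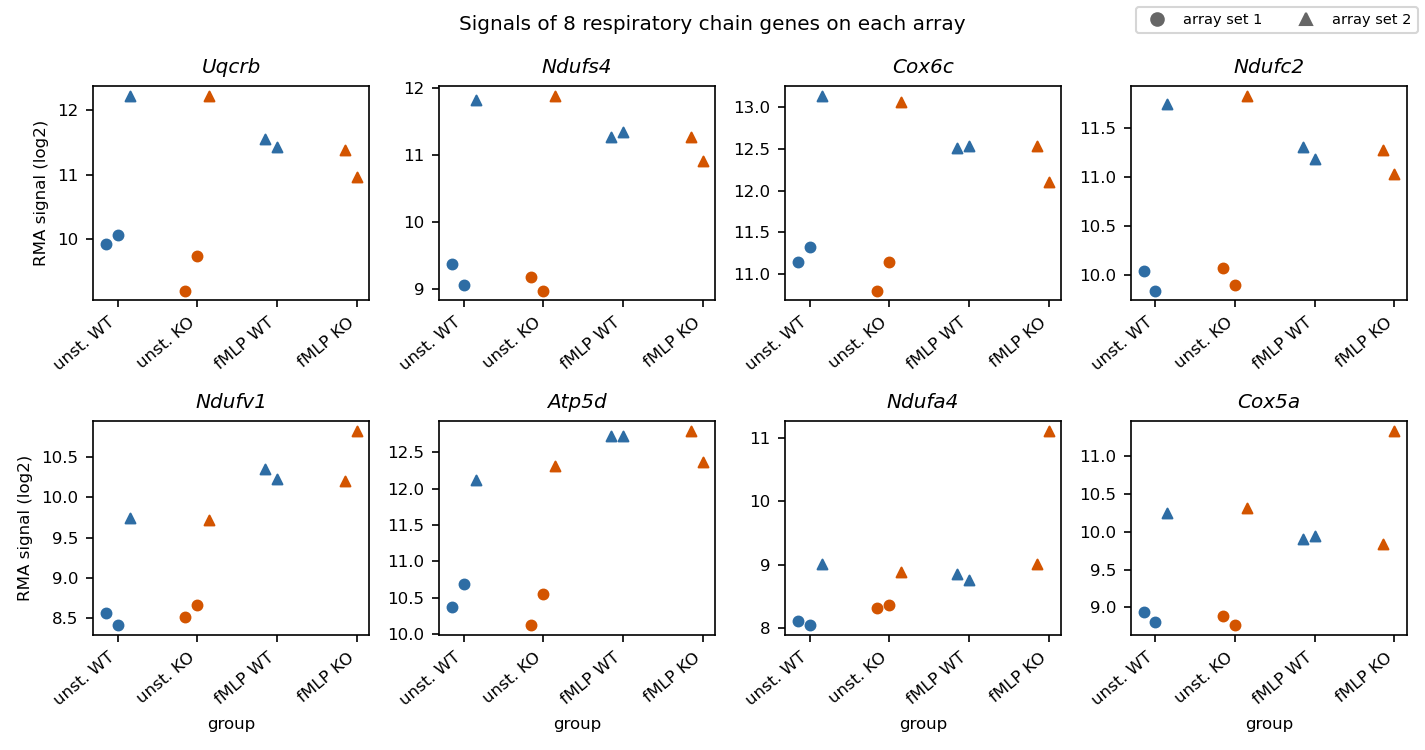
RMA signal (log2, vertical axis, each panel with its own range) of 8 respiratory chain genes on the 10 arrays, by group; WT is wild type, KO is Lcn2 knockout, unst. is unstimulated, blue marks wild type and orange knockout, circles are array set 1 and triangles array set 2. Uqcrb, Ndufs4, Cox6c and Ndufc2 are lower on the fMLP triangles than on the unstimulated triangles, Ndufv1 and Atp5d are higher, and Ndufa4 and Cox5a stand out on fMLP Lcn2 knockout replicate 2.

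After fMLP, a group of respiratory chain genes had lower values than on unstimulated replicate 3 and a smaller group higher ones; the calls came from complexes I, III and IV among the lower and I, III and V among the higher. With all 10 arrays none of the 81 was called by limma at a Benjamini-Hochberg adjusted p below 0.05 in the difference averaged over genotype (0.341% of all genes were). Their median difference was -0.07, beside -0.02 for all genes. With all 10 arrays the replicate number as a block also gave no member call (0.128% of all genes). Quantile normalization within each array set gave 1 (0.732% of all genes). The counts given below for the block, array set 2 and this normalization leave out fMLP Lcn2 knockout replicate 2. The fit within array set 2 alone then had 5 arrays and 1 residual degree of freedom. Without fMLP Lcn2 knockout replicate 2, limma called 13: 5 rose (6.17% of the 81, beside 6.36% of all genes) and 8 fell (9.88%, beside 3.79%). The adjusted p values of the 13 ranged from 0.0123 to 0.0485. The 8 falls turn into rises when the array set is left out of the fit, since array set 1 is then part of the baseline, and limma then calls none of the 81 (0.0498% of all genes). With the replicate number as a block, 20 were called (13.2% of all genes), within array set 2 alone 35 (22.2% of all genes), and after quantile normalization within each array set 14 (9.62% of all genes). Leaving out fMLP Lcn2 knockout replicate 1 in place of replicate 2 gave 29 calls (28.8% of all genes).

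Counted over arrays, more of the genes lay lower than higher after fMLP. The 4 fMLP arrays lay all below both unstimulated replicate 3 arrays for 28 of the 81 genes (34.6%, beside 20.2% of all genes) and all above for 8 (9.88%, beside 11.9%). With fMLP Lcn2 knockout replicate 2 set aside, 33 lay below (40.7%, beside 28.7%) and 24 above (29.6%, beside 26.8%). The 33 were 15 subunits of complex I, 8 of complex V, 6 of complex IV, 3 of complex III and Sdhb of complex II. The 24 were 8 of complex I, 6 of complex V, 4 of complex III, 2 each of complexes II and IV, and the assembly factors Ndufaf1 and Ndufaf3. The 8 that lay above on all 4 arrays were Ndufa9, Ndufb7, Ndufb10, Ndufv1, Sdhd, Cox6b2, Atp5d and Atp5e.

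**Figure D2:**
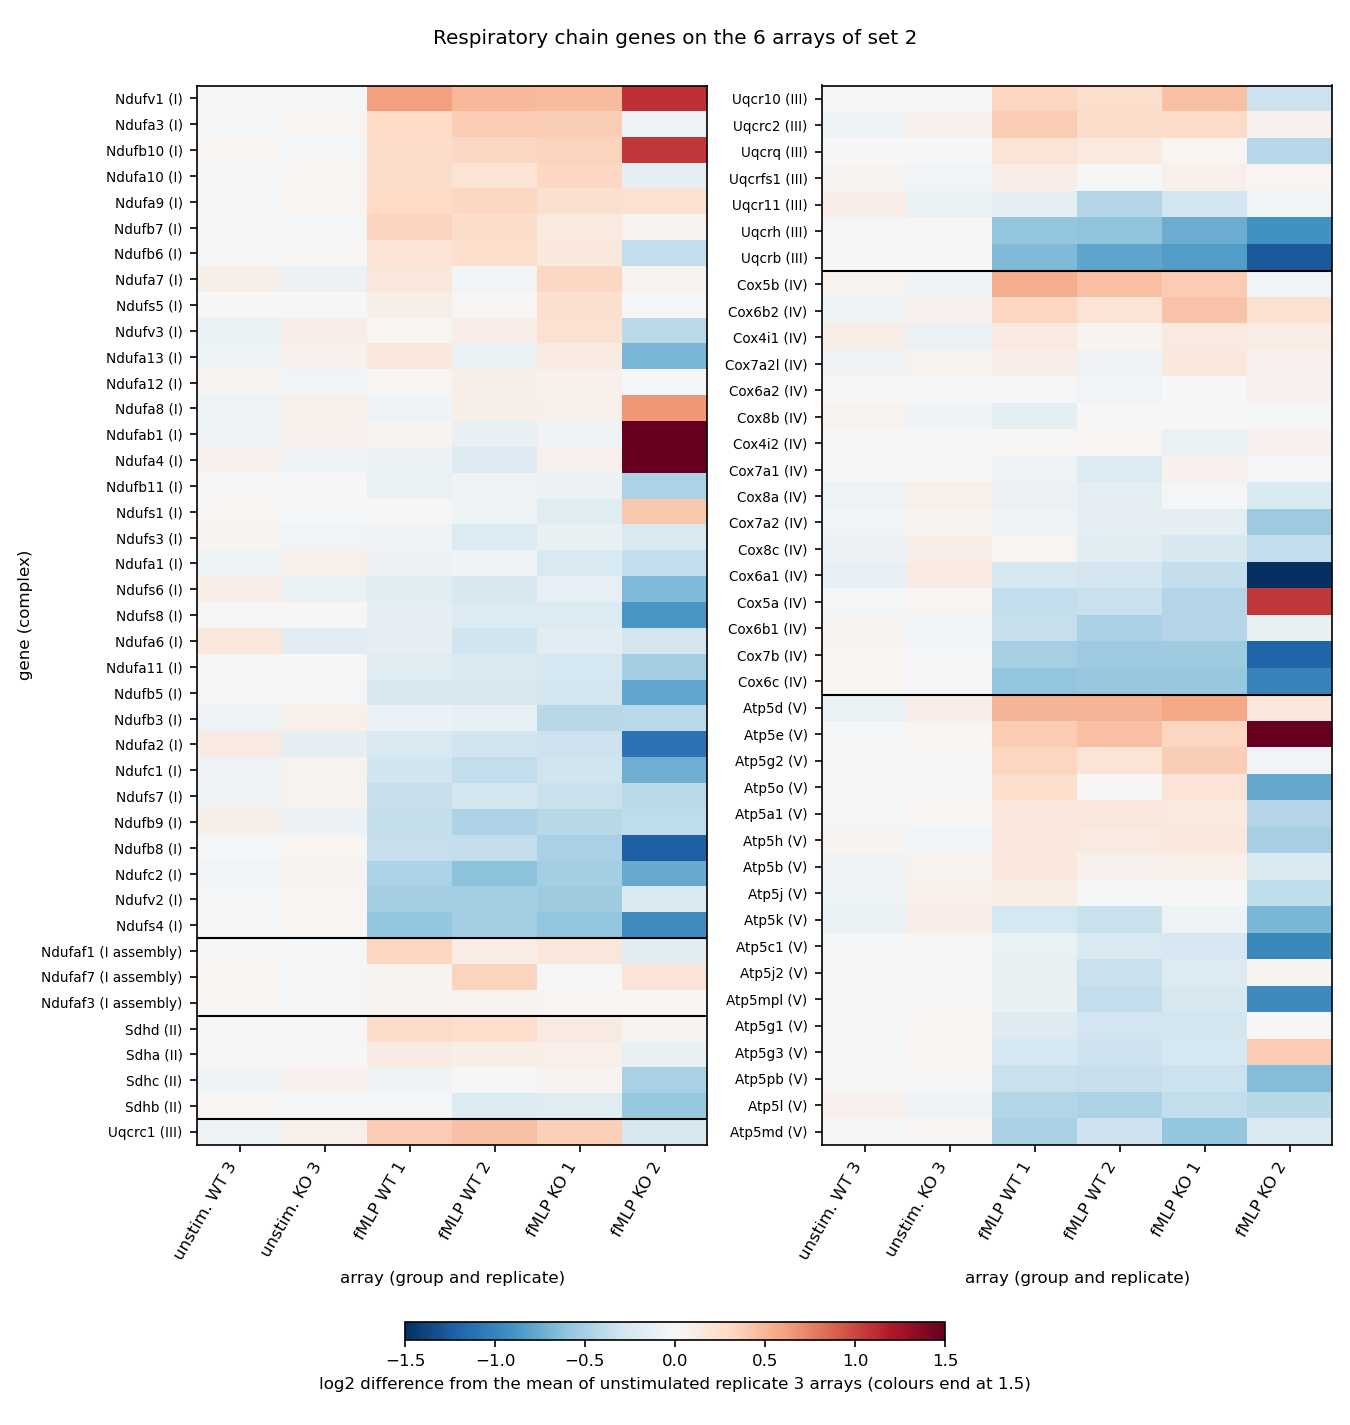
Heat map of the 81 tested respiratory chain genes (vertical axis, by complex) on the 6 arrays of set 2 (horizontal axis); colour is the log2 difference from the mean of the 2 unstimulated replicate 3 arrays, red higher and blue lower, with colours ending at 1.5. Blue and red bands hold over the first 3 fMLP columns, and the last column, fMLP Lcn2 knockout replicate 2, departs from them for genes such as Ndufa4, Ndufab1, Cox5a, Cox6a1 and Atp5e.

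In complex I, the flavoprotein subunit Ndufv1, which binds NADH, was the gene with the lowest adjusted p among the 13. Ndufv1 was 9.75 and 9.72 on unstimulated replicate 3 of wild type and knockout, 10.35 and 10.23 after fMLP in wild type, and 10.21 and 10.83 in the knockout. All 4 fMLP arrays were above both unstimulated ones. Its difference was 0.67 (SE 0.17, limma adjusted p 0.135) with all arrays and 0.51 (SE 0.10, adjusted p 0.0123) without fMLP Lcn2 knockout replicate 2. Ndufa3, an accessory subunit, was 11.09 and 11.14, then 11.41 and 11.49 in wild type and 11.48 and 11.04 in the knockout. The last array lay below both unstimulated ones and the other 3 above, and without the last the gene rose by 0.35 (SE 0.10, limma adjusted p 0.0436).

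The 3 complex I genes that fell were Ndufs4, Ndufc2 and Ndufb9. Ndufs4, an accessory subunit next to the NADH-oxidising module, was 11.82 and 11.88 on unstimulated replicate 3, 11.27 and 11.34 after fMLP in wild type, and 11.26 and 10.91 in the knockout. Ndufc2, an accessory subunit of the membrane arm, was 11.75 and 11.83, then 11.31 and 11.18, and 11.28 and 11.03. For both genes all 4 fMLP arrays lay below both unstimulated replicate 3 arrays, as they did for 20.2% of all genes. The unstimulated arrays of array set 1 lay lower than all of these. The limma differences without fMLP Lcn2 knockout replicate 2 were -0.57 (SE 0.12, adjusted p 0.0169) for Ndufs4 and -0.53 (SE 0.10, adjusted p 0.0127) for Ndufc2. Ndufb9, also of the membrane arm, was 11.52 and 11.34, then 11.07 and 10.97 in wild type and 11.01 and 11.05 in the knockout. It was the gene of the 3 on which fMLP Lcn2 knockout replicate 2 lay with the other fMLP arrays: its difference was -0.40 (SE 0.09, limma adjusted p 0.110) with that array and -0.42 (SE 0.09, adjusted p 0.0177) without. Ndufv2, the iron-sulfur partner of Ndufv1, went the other way from it, at -0.53 without the array (SE 0.19, limma adjusted p 0.114). Ndufb8 (-0.42, limma adjusted p 0.0808), Ndufs7 (-0.32, adjusted p 0.0770), which holds an iron-sulfur cluster near the quinone site, and the small subunit Ndufc1 (-0.31, adjusted p 0.0638) had values below 0, and Ndufb10 (0.31, adjusted p 0.0744) above, none past the threshold. The median of the 33 subunits was -0.11, with 13 above 0. The assembly factors differed by 0.04 to 0.19 and none passed.

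Complex II showed no call in any comparison. Sdha, the flavoprotein that oxidises succinate, was 10.93 and 10.91 on unstimulated replicate 3, 11.04 and 11.01 after fMLP in wild type, and 11.00 and 10.81 in the knockout. Sdhb, the iron-sulfur subunit, was 10.12 and 10.07, then 10.06 and 9.89, and 9.91 and 9.53. The membrane anchors Sdhc and Sdhd differed by 0.01 and 0.20 without fMLP Lcn2 knockout replicate 2, with 95% intervals of -0.20 to 0.22 and -0.05 to 0.45. The interval was -0.15 to 0.34 for Sdha and -0.37 to 0.07 for Sdhb.

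Complex III held both the largest fall of the 13 and a rise. Uqcrb, which helps to form the quinone-binding part of the complex, was 12.23 and 12.22 on unstimulated replicate 3, 11.56 and 11.43 after fMLP in wild type, and 11.39 and 10.96 in the knockout. Uqcrh, the hinge protein that helps cytochrome c1 meet cytochrome c, was 11.21 and 11.24, then 10.64 and 10.62, and 10.48 and 10.32. For both genes all 4 fMLP arrays lay below both unstimulated replicate 3 arrays (20.2% of all genes), and the unstimulated arrays of array set 1 lay lower still. Uqcrb fell by 0.78 (SE 0.17, limma adjusted p 0.0191) and Uqcrh by 0.67 (SE 0.17, adjusted p 0.0344) without fMLP Lcn2 knockout replicate 2, and with it the differences were -0.89 (adjusted p 0.115) and -0.71 (adjusted p 0.135). Uqcr10, a small subunit, was 9.32 and 9.33, then 9.65 and 9.59 in wild type and 9.78 and 9.0 in the knockout. The last array was the lowest of the 6, and without it Uqcr10 rose by 0.37 (SE 0.10, limma adjusted p 0.0404). The core subunits Uqcrc1 (0.38, adjusted p 0.0621) and Uqcrc2 (0.31, adjusted p 0.179) and the Rieske iron-sulfur protein Uqcrfs1 (0.07, adjusted p 0.771) did not pass.

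In complex IV, 3 genes fell and none rose without fMLP Lcn2 knockout replicate 2. Cox6c was 13.14 and 13.07 on unstimulated replicate 3, 12.51 and 12.54 after fMLP in wild type, and 12.54 and 12.10 in the knockout. All 4 fMLP arrays lay below both unstimulated replicate 3 arrays (20.2% of all genes), and the unstimulated arrays of array set 1 lay lower still. It fell by 0.57 (SE 0.12, limma adjusted p 0.0169), and with all 10 arrays it was the 1 member called after quantile normalization over all arrays (0.277% of all genes) or within each array set (0.732%). Cox6b1, which faces the intermembrane space, was 11.81 and 11.73, then 11.42 and 11.28, and 11.33 and 11.66. All fMLP arrays were lower, and without the last one the fall was 0.43 (SE 0.10, limma adjusted p 0.0281). Cox5a, a subunit on the matrix side, was 10.25 and 10.31, then 9.91 and 9.95, and 9.84 and 11.34. The array that carries neuron genes was the highest of all 10, which left the difference at -0.02 with it and -0.39 (SE 0.09, limma adjusted p 0.0279) without it. Cox7b lay lower on every fMLP array, at -0.52 (SE 0.20, adjusted p 0.145), and Cox5b, a zinc-binding subunit, was 0.43 higher (SE 0.13, adjusted p 0.0654), both without that array.

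Isoform pairs of complex IV were set side by side, gene by gene, without that array. Cox4i1, the general form, differed by 0.12 and Cox4i2, known from lung and low oxygen, by -0.04. Cox6a1, the general form, differed by -0.31 (limma adjusted p 0.185) and the heart and muscle form Cox6a2 by -0.02. Cox6b1 fell as given, and the testis form Cox6b2 was 0.35 higher (SE 0.10, limma adjusted p 0.0614). For Cox7a2, Cox7a2l and the muscle form Cox7a1 the values were -0.12, 0.09 and -0.04, and for Cox8a, Cox8b and Cox8c they were -0.07, -0.03 and -0.15. The testis gene Cox7b2 stayed under the filter on all arrays, between 5.76 and 6.34. Ndufa4l2, the low-oxygen relative of Ndufa4, was above the filter on 1 array only.

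In complex V, 2 genes of the central stalk rose without fMLP Lcn2 knockout replicate 2, and none fell. Atp5d, the delta subunit, was 12.12 and 12.31 on unstimulated replicate 3, 12.73 and 12.72 after fMLP in wild type, and 12.80 and 12.37 in the knockout. Atp5e, the epsilon subunit, was 9.20 and 9.26, then 9.61 and 9.68, and 9.55 and 11.20. All 4 fMLP arrays were above both unstimulated arrays for each gene. Atp5d rose, without fMLP Lcn2 knockout replicate 2, by 0.55 (SE 0.15, limma adjusted p 0.0485) and Atp5e by 0.37 (SE 0.10, adjusted p 0.0369). With that array the Atp5e difference was 0.78 (SE 0.37, adjusted p 0.381), since the array lay 1.58 above the mean of the other fMLP arrays. The third gene of that stalk, Atp5c1 (gamma), was not called, at -0.21 (SE 0.09, adjusted p 0.203). The catalytic ring genes Atp5a1 (alpha) and Atp5b (beta) differed by 0.16 and 0.09, and Atp5pb (0.33 lower, adjusted p 0.0624) and Atp5l (0.41 lower, adjusted p 0.161) of the peripheral stalk and membrane part did not pass. The c-ring genes encode the same mature protein from 3 loci and differed in sign: -0.26 for Atp5g1, 0.32 for Atp5g2 (adjusted p 0.0565) and -0.28 for Atp5g3. The median of the 17 genes was -0.18, with 8 above 0.

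**Figure D3:**
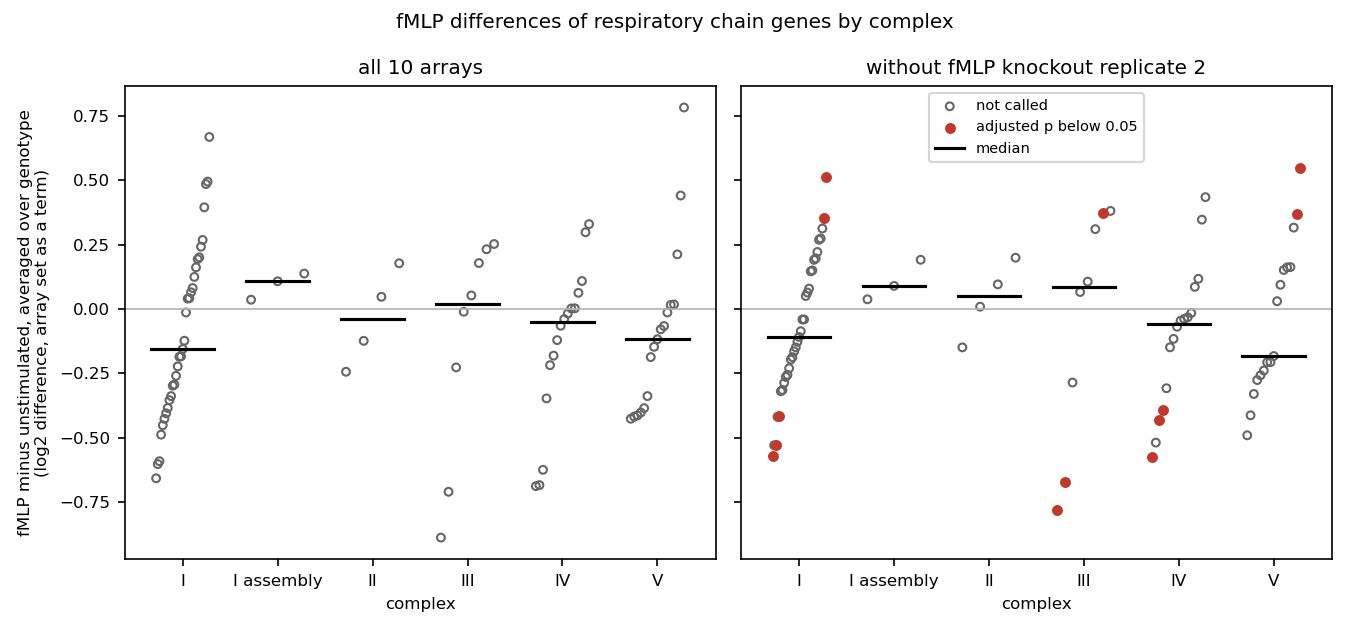
fMLP minus unstimulated differences averaged over genotype (log2, vertical axis) for the 81 genes by complex, from the fit of all 10 arrays (left) and without fMLP Lcn2 knockout replicate 2 (right); each point is a gene, filled points have an adjusted p below 0.05 and bars are medians. No point is filled on the left; on the right 13 are, 5 above 0 and 8 below.

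Within each genotype the picture was thinner. In wild type cells none of the 81 was called with all arrays (0.0782% of all genes). With array weights, which let arrays count unequally, limma called 35 of the 81 in wild type (43.2%, beside 26.5% of all genes) and 9 averaged over genotype (11.1%, beside 5.44%). Without fMLP Lcn2 knockout replicate 2, which adds to the shared estimate of the spread, limma called 7 in wild type. Ndufv1 and Atp5e rose, beside 3.46% of all genes called higher, and Ndufb9, Cox6c, Uqcrb, Ndufc2 and Ndufs4 fell, beside 1.68% called lower. Against unstimulated wild type replicate 3 directly, Uqcrb lay at -0.67 and -0.80 on the 2 fMLP arrays and Ndufv1 at 0.60 and 0.48. The fit within a genotype also draws on unstimulated replicates 1 and 2 through the shared array set term, and gave -0.91 for Uqcrb (SE 0.20, limma adjusted p 0.0293) and 0.58 for Ndufv1 (SE 0.12, adjusted p 0.0208). In knockout cells limma called none with all arrays (0.0853% of all genes) and none without that array (2.16% of all genes). Both shares of all genes are calls at an adjusted p below 0.05. At an unadjusted limma p below 0.05, a looser threshold, 23 of the 81 passed in knockout cells with all arrays. The share of all genes at the looser threshold is not given, so that count is no result about the members. Without that array the knockout fMLP arm is 1 array, which is assumed to vary like the other groups, here and in the interaction and in the knockout comparison after fMLP. The interaction of genotype and fMLP was tested directly, and limma called none with or without that array (0% of all genes in both). With all arrays, 3 of the 81 had an unadjusted limma p below 0.05, again without a share of all genes at that threshold. Leaving out fMLP Lcn2 knockout replicate 1 gave 7 calls in wild type (5.14% of all genes), 35 in the knockout (38.6%) and 25 in the difference of responses (35%), with the array that carries neuron genes as the lone knockout fMLP array. The fMLP comparisons share their unstimulated arrays, so their values are not independent of each other.

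In unstimulated cells limma called no respiratory chain gene between Lcn2 knockout and wild type. It called none of the 81 with all arrays (0.00711% of all genes, which is Lcn2 itself). The median knockout minus wild type difference was -0.03, beside 0.01 for all genes, and the medians of the 3 same-number pairs were -0.04, -0.07 and 0.03. Ndufb9 had the lowest p: it was 9.25, 9.29 and 11.52 in wild type and 9.01, 9.06 and 11.34 in the knockout, lower in each pair, with a difference of -0.22 (95% interval -0.41 to -0.03, limma adjusted p 1). Uqcrb was 9.92, 10.06 and 12.23 in wild type and 9.19, 9.73 and 12.22 in the knockout, a difference of -0.36 (interval -0.79 to 0.07). The values were -0.26 for Ndufb11, -0.20 for Cox4i1, -0.35 for Cox7b and 0.17 for Ndufa9, none past the threshold. Ndufb11 differed by 0.01 within array set 2 alone.

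The knockout was higher in all 3 unstimulated pairs for 13 of the 81 genes (16.0%, beside 16.7% of all genes) and lower in all 3 for 9 (11.1%, beside 12.1%). The 13 were Ndufa1, Ndufa8, Ndufa9, Ndufa13, Ndufc2, Uqcrh, Uqcrq, Cox4i2, Cox8c, Atp5e, Atp5g2, Atp5mpl and Atp5pb. The 9 were Ndufb9, Ndufs5, Ndufaf3, Uqcrb, Cox4i1, Cox5b, Cox6c, Cox7b and Atp5h. The 3 knockout arrays lay all above the 3 wild type arrays for no member (0.476% of all genes) and all below for 1 (0.149% of all genes). That gene was Ndufaf3, a complex I assembly factor, at 9.91, 9.95 and 9.80 in wild type and 9.71, 9.68 and 9.74 in the knockout, a difference of -0.17 (interval -0.36 to 0.02, limma adjusted p 1). After fMLP it was 9.82 and 9.82 in wild type and 9.80 and 9.80 in the knockout. Adding the first fMLP pair left 3 genes higher in 4 of 4 pairs (beside 10.5% of all genes), namely Ndufa8, Atp5g2 and Atp5pb. It left 5 lower (beside 8.28%), namely Ndufb9, Ndufaf3, Uqcrb, Cox5b and Cox7b.

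**Figure D4:**
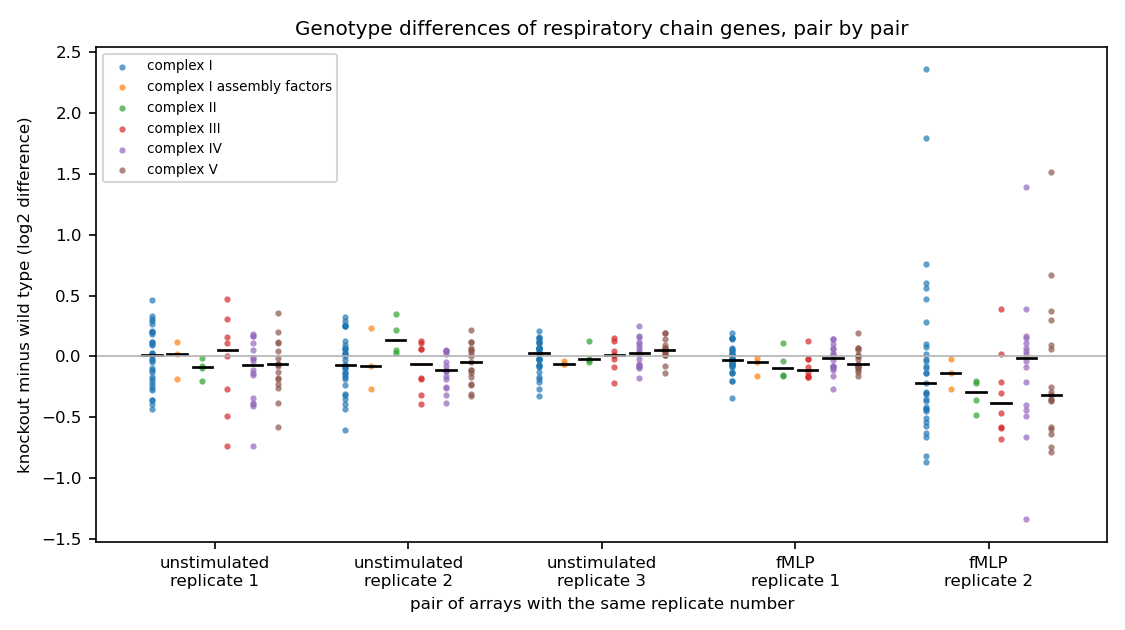
Knockout minus wild type differences (log2, vertical axis) of the 81 genes in the 5 pairs of arrays with the same replicate number (horizontal axis), coloured by complex, with bars at the medians. The unstimulated pairs and the first fMLP pair stay between -0.74 and 0.47, and the second fMLP pair runs from -1.34 to 2.36.

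After fMLP, limma again called none of the 81 between genotypes with all arrays (0.00711% of all genes). The median was -0.15 with all arrays, beside -0.05 for all genes, and the 2 pairs differed: -0.04 in the first and -0.22 in the second. Without fMLP Lcn2 knockout replicate 1, 34 were called (45.5% of all genes). Single genes set fMLP Lcn2 knockout replicate 2 apart. Ndufa4, now counted as a cytochrome c oxidase subunit, was 8.86 and 8.76 in wild type and 9.01 and 11.12 in the knockout. Ndufab1, the mitochondrial acyl carrier protein, was 9.05 and 8.90, then 8.96 and 10.70. Together with Cox5a and Atp5e these were the 4 genes more than 1 above the mean of the other fMLP arrays (4.94% of the 81 and 4.94% of all genes). Cox6a1, at 9.38 beside 10.64 to 10.74, was the 1 gene more than 1 below (1.23%, beside 4.69% of all genes). Over the 81 genes the array lay 0.25 below the other fMLP arrays in the median, with 57 below. Over all genes tested it lay 0.11 below, with 8425 of 14063 below. Ndufa4 differed by 1.25 between genotypes with the array (limma adjusted p 0.416) and by 0.20 without it (adjusted p 1). The part of neuron RNA in these values was not tested.

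Related mitochondrial genes, from lists drawn up from general knowledge, gave no call with all 10 arrays for the fMLP difference averaged over genotype. Without fMLP Lcn2 knockout replicate 2, cytochrome c1 (Cyc1), a catalytic subunit of complex III outside the symbol rule, fell by 0.47 (SE 0.12, limma adjusted p 0.0375), and cytochrome c itself (Cycs) differed by -0.16. Of 33 tested assembly factors outside the symbol rule, 3 rose and 1 fell. The 3 were Atpaf2, an ATP synthase assembly factor (0.54), Timmdc1 of complex I assembly (0.50) and Coa7 of complex IV assembly (0.46); Dmac1 of complex I assembly fell by 0.40. Of 13 citric acid cycle enzymes, Suclg2 rose (0.50) and none fell. Of 9 regulators of mitochondrial gene expression, Tfb2m, a mitochondrial transcription factor, rose (0.74, SE 0.12, adjusted p 0.00536), while Nrf1 (0.03) and Gabpa (-0.29, adjusted p 0.198) did not pass. Of 68 mitochondrial ribosomal protein genes 6 rose and 5 fell, led by Mrpl20 (0.64) and Mrpl33 (-0.56). The share of all genes called was 6.36% higher and 3.79% lower in this fit.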

How the data were processed

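RNA was measured on 10 Affymetrix arrays, and the authors deposited RMA values made in Affymetrix Expression Console, per the submitters' processing notes. RMA subtracts background, equalises the arrays of a run and summarises probes. The deposited values were taken as log2 from their range; their log base, and whether 1 run held all arrays, are not given in the sources used here. Of 35556 probe sets, 21789 name 1 gene, 1621 several and 12146 none in dated platform annotation; 21766 matched RefSeq. The probe set with the highest mean stood for a gene. Genes above 8.18, the median of all values, on at least 2 arrays were tested. limma (3.58.1, R 4.3.3) fitted 4 groups and the array set (interquartile range under or over 2), with 5 residual degrees of freedom, two-sided, Benjamini-Hochberg over 14063 genes, called below 0.05; the scripts were tested on simulated data. Same-numbered unstimulated arrays deviated together (correlations 0.949, 0.929 and 0.988; fMLP 0.0597), but number 3 coincides with the array set; the labels do not say what a number marks. Arrays have no read depth: their number limits the precision, and exact permutation of 3 against 3 cannot go below p 0.1. Members, lists and tests were chosen with earlier results of these data known. Named were called members, the lowest p per complex, complex II and isoform groups; genes named beyond these, from counts, motifs, subunit roles or a single array, were chosen after their values were seen. Alternatives concerned the array set, block, filter, normalization, probe sets, variance model, weights and each array left out; 4 that combine 2 choices were added after the data were seen.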

Additional observations from a re-analysis of the deposited data

How the results depend on the processing

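Of 48 single-gene results under 26 other settings, 1006 values kept their sign and 63 changed it. Without the array set term the fMLP medians became 0.73 in wild type, 0.69 in the knockout and 0.72 averaged over genotype. Values averaged over genotype that changed sign there were Ndufc2 0.63, Ndufs4 1.14, Cox6c 0.65, Ndufb9 1.11, Uqcrb 0.78, Cox5a 0.94, Cox6b1 1.16, Uqcrh 0.85, Sdhb 1.04, Sdhc 0.10, Atp5pb 0.27, Atp5l 0.027, Cox4i2 -0.37, Cox6a1 1.22, Cox6a2 -0.58, Cox7a2 0.93, Cox7a2l -0.023, Cox7b 0.83 and Cox8a 0.57. Array set 1 is then part of the unstimulated mean. Also without fMLP Lcn2 knockout replicate 2, the median was 0.68 and the values were Ndufc2 0.69, Ndufs4 1.23, Cox6c 0.76, Ndufb9 1.10, Uqcrb 0.89, Cox5a 0.56, Cox6b1 1.08 and Uqcrh 0.88. In array set 2 alone the unstimulated knockout median was 0.028, with Ndufb11 0.0083, Ndufaf1 -0.042, Sdhd -0.027, Uqcrc2 0.13, Atp5md 0.048 and Atp5b 0.094, and also without that replicate 35 were called after fMLP. Array weights gave 35 calls after fMLP in wild type (43.2%, beside 26.5% of all genes) and 9 averaged (11.1%, beside 5.44%), with Uqcrc2 0.0089 and Atp5b 0.022 in the unstimulated knockout. Quantile normalization over all arrays called 1 member after fMLP, Cox6c (0.277% of all genes), with medians of 0.015 (knockout after fMLP) and -0.075 (fMLP in wild type), Cox5a at 0.064 and Cox6a2 at -0.00087. Quantile normalization within each array set called 1, Cox6c (0.732% of all genes), with medians of 0.014 and -0.086, Cox5a at 0.031 and Cox6a2 at -0.00089, and 14 (17.3%, beside 9.62% of all genes) also without that replicate. The mean over probe sets gave Cox7a2l -0.26. With the replicate number as a block, Cox4i2 was -0.0024 and no member was called with all arrays in any comparison; without that replicate the block gave 20 calls. The cause was not tested for these changes.

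With each array left out in turn, calls ranged from 0 to 34 for the knockout after fMLP, 0 to 7 for fMLP in wild type, 0 to 35 for fMLP in the knockout, 0 to 29 averaged and 0 to 25 for the difference of responses. The medians ranged from -0.097 to -0.021 (fMLP in wild type) and -0.29 to -0.012 (knockout after fMLP). Calls arose only when 1 of the fMLP Lcn2 knockout arrays was left out. The highest counts were reached without fMLP Lcn2 knockout replicate 1 and are given above with the shares of all genes called. Those shares were of like size, so the counts are no result about the members. Ranges that cross 0 in the unstimulated knockout were -0.47 to 0.0038 for Atp5md, -0.042 to 0.21 for Ndufaf1 and -0.016 to 0.15 for Sdhd. For fMLP averaged they were Cox4i2 -0.038 to 0.044, Cox5a -0.39 to 0.36, Cox6a2 -0.015 to 0.020, Cox7a2 -0.45 to 0.013, Cox7a2l -0.017 to 0.14, Cox8a -0.26 to 0.022, Ndufa4 -0.041 to 1.01, Ndufaf1 -0.0016 to 0.22, Ndufaf3 -0.049 to 0.12, Sdha -0.00048 to 0.096, Sdhc -0.26 to 0.0093, Uqcr10 -0.015 to 0.37 and Uqcrc2 -0.034 to 0.54. Background correction and scan date were not varied, since summarised values alone were used; with 2 fMLP arrays a genotype, the number of arrays limits the precision.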

Other observations

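Several members have more than 1 probe set, and 25 such further probe sets were compared with the ones used. Of the 24 that passed the filter, 23 had the same sign of the fMLP minus unstimulated replicate 3 difference as the one used, without fMLP Lcn2 knockout replicate 2; the exception was a probe set of Ndufb11 (0.07). The other probe sets of Uqcrb gave -0.67 and -0.58, that of Cox6c -0.55 and that of Cox7b -0.54. Sizes differed more for Uqcr11 (-0.80, beside -0.29 on the one used) and Atp5pb (-0.69, beside -0.33). The further probe sets of Atp5l lay between -0.42 and -0.32.

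Genes that share their probe sets with another symbol were left out of the members, and their values were as follows. The 3 probe sets of Cox7c, a small cytochrome c oxidase subunit, that also name Gm12338 differed by -0.24, -0.23 and -0.22 after fMLP without fMLP Lcn2 knockout replicate 2. The 2 probe sets of Ndufb4, a complex I membrane arm subunit, that also name Ndufb4b differed by -0.59 and -0.51. Which of the paired symbols the signal comes from cannot be told apart.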
